A study of Mus musculus with 15 samples.

Results

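The imprinted Dlk1-Dio3 locus of mouse chromosome 12 was examined through 7 of its genes, namely the long noncoding RNA genes Meg3, Rian and Mirg and the protein-coding genes Begain, Dlk1, Rtl1 and Dio3. They were picked by name, as the locus genes found among the 25080 genes listed for every library. No measured value entered the rule, but earlier results of these data were known when it was made. Of the 7 genes, 5 passed a filter on low values and entered the tests among 13471 genes in all, and Rtl1 and Dio3 stayed below it. RNA of the mouse thalamus was depleted of ribosomal RNA and sequenced in strand-aware libraries. The mice were adults of 2 to 4 months. The control libraries are titled Maged1 WT and mostly tagged Maged1 Loxp. In the conditional knockout (cKO), Cre from the Vglut2 gene deletes floxed Maged1 in the glutamatergic neurons that express it, so other thalamic cells of these mice keep Maged1. All mice had 3 days of saline, then 5 days of intraperitoneal cocaine (20 mg/kg) or saline. Saline was given to the mice of 4 control and 4 cKO libraries and cocaine to those of 4 libraries labelled control and 2 labelled cKO, and 1 more cKO cocaine sample was not analysed here.

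The locus is known for imprinting, in which a gene copy is silent or active according to the parent it came from. Meg3, Rian and Mirg are transcribed from the maternal chromosome, many microRNAs (miRNAs) and small nucleolar RNAs lie within or beside them, and Dlk1, Rtl1 and Dio3 are expressed mainly from the paternal chromosome. In brain, the noncoding RNAs are abundant in neurons, DLK1 is a membrane protein related to Notch ligands, RTL1 derives from a retrotransposon, and DIO3 inactivates thyroid hormone. Begain encodes a protein found at synapses with the scaffold PSD-95.

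In the GRCm38 annotation the 7 genes lie on chromosome 12 in the order Begain (109032187 to 109068217, minus strand), Dlk1 (109452823 to 109463336, plus), Meg3 (109541001 to 109571726, plus), Rtl1 (109589193 to 109600330, minus), Rian (109603940 to 109661716, plus), Mirg (109729764 to 109749460, plus) and Dio3 (110279068 to 110281097, plus). Their Ensembl identifiers in the same order are ENSMUSG00000040867.12, ENSMUSG00000040856.17, ENSMUSG00000021268.17, ENSMUSG00000085925.3, ENSMUSG00000097451.10, ENSMUSG00000097391.8 and ENSMUSG00000075707.5. The span from Begain to Dio3 is 1248.9 kb. The files also listed miRNA genes of this span, which are described further on. Mature sequences are shown for Mir666 and Mir1188, whose levels separated the cocaine from the saline libraries completely, and for Mir654 and Mir3072, as examples of 5 genes listed at 0 in every saline library, chosen because each was at 0 in only 1 cocaine library. The seed, bases 2 to 8, which pairs with target messenger RNAs, is in capitals, and the sequences are those of RefSeq on GRCm38.p6, written with U.
mmu-miR-666-5p: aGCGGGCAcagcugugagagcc
mmu-miR-666-3p: gGCUGCAGcgugaucgccugcu
mmu-miR-1188-5p: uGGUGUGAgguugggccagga
mmu-miR-1188-3p: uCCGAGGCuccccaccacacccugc
mmu-miR-654-5p: uGGUAAGCugcagaacaugugu
mmu-miR-654-3p: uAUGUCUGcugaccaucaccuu
mmu-miR-3072-5p: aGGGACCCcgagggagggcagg
mmu-miR-3072-3p: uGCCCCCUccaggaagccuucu
Over all 10 miRNA genes called between cocaine and saline there are 18 mature sequences with 18 different seeds, and 5 of these seeds, none of them among those printed, are also held by another mature mouse miRNA of the RefSeq table.

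A promoter is shown for Meg3, since Meg3, Rian and Mirg varied together within the groups of libraries. It is the RefSeq sequence chr12:109540746-109541045 (GRCm38.p6, plus strand), with the 8 letters of a cAMP response element, TGACGTCA, in capitals.
Meg3 start: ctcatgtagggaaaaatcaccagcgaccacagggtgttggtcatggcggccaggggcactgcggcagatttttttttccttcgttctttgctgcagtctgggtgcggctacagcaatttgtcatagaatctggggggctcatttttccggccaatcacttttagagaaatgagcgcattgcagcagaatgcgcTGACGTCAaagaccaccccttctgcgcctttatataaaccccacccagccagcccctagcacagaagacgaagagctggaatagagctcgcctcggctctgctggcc
TGACGTCA reads the same on both strands and is found in 1.79% of 32851 promoter windows of this length. The window holds 13 CpG dinucleotides, against a median of 7 over all windows. No TGACGTCA was found in the windows of Dlk1, Rian, Mirg, Dio3 or the 5 starts of Begain, nor at the other Meg3 start, and Rtl1 has no window in the table. These letters are a description of the sequence and not of its binding.

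Values below are TPM, an abundance of transcripts corrected for their length and for the size of the library, which can be compared between genes. Each library was divided by a trimmed-mean (TMM) factor, and these values are called scaled TPM. The deposited TPM of the listed genes summed to between 312659.4 and 377400.6 per library, and since TPM keep no record of reads the depth of the libraries is unknown. The factors were 0.807 to 0.9466 in the cocaine and 1.0725 to 1.209 in the saline libraries, and without them all genes shift by a median log2 value of -0.34 with cocaine. Maged1 checked the genotype labels, with 163.5 to 188.6 TPM as deposited in controls and 69.2 to 89.4 in cKO mice after saline. After cocaine it was at 49.7 to 76.7 where the label read control and at 144.3 and 140.4 where it read cKO. Its level therefore goes against the genotype labels of the cocaine libraries. By this level, contrasts of cocaine with saline within a label may cross genotypes, and so may the interaction. The contrast between the labels after cocaine may be reversed. The genotype tag contradicts the title in 4 saline libraries, and the titles were used. Maged1 went with the titles in these 4. It was at 167.7 and 165.6 TPM in control saline replicates 3 and 4, tagged cKO. In cKO saline replicates 1 and 2, tagged control, it was at 89.4 and 86.8. The comparison of all 6 cocaine with all 8 saline libraries is given first. It averages the contrasts within the 2 labels, so the 2 libraries labelled cKO cocaine carry as much weight as the 4 labelled control. With the genotype labels left out, its log2 differences were 0.0088 for Meg3, -0.078 for Rian, 0.11 for Mirg, 0.20 for Begain and -0.11 for Dlk1. The thalamic neuron markers fitted the label of the tissue, with summed levels of 502.2 to 755.8 scaled TPM over 10 genes and none at 0. Markers of neighbouring tissue varied widely, from 8.91 to 515.6 for 11 hypothalamic genes, from 11.6 to 197.6 for 7 habenular genes and from 3.72 to 57.1 for 6 choroid plexus genes, apart from 1450 for the latter in control saline replicate 1.

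The noncoding RNAs Meg3 and Rian were the most abundant members, and the order of the 7 levels was nearly the same in all libraries. Over the 14 libraries the mean was 300.8 ± 37.6 scaled TPM (SD, n = 14) for Meg3, 112.9 ± 7.54 for Rian, 30.1 ± 2.95 for Begain, 8.16 ± 1.36 for Mirg, 6.81 ± 3.76 for Dlk1 and 0.29 ± 0.137 for Rtl1. Dio3 was listed at 0 in 9 of 14 libraries. Meg3 exceeded Rian, Rian exceeded Begain and Begain exceeded Mirg in 14 of 14 libraries, but Mirg exceeded Dlk1 in 10 of 14, so these 2 neighbours do not differ beyond their spread. Meg3 was 2.74 times Rian in the median library. The noncoding Mirg lay below the coding gene Begain, which was 3.73 times Mirg in the median library.

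**Figure D1:**
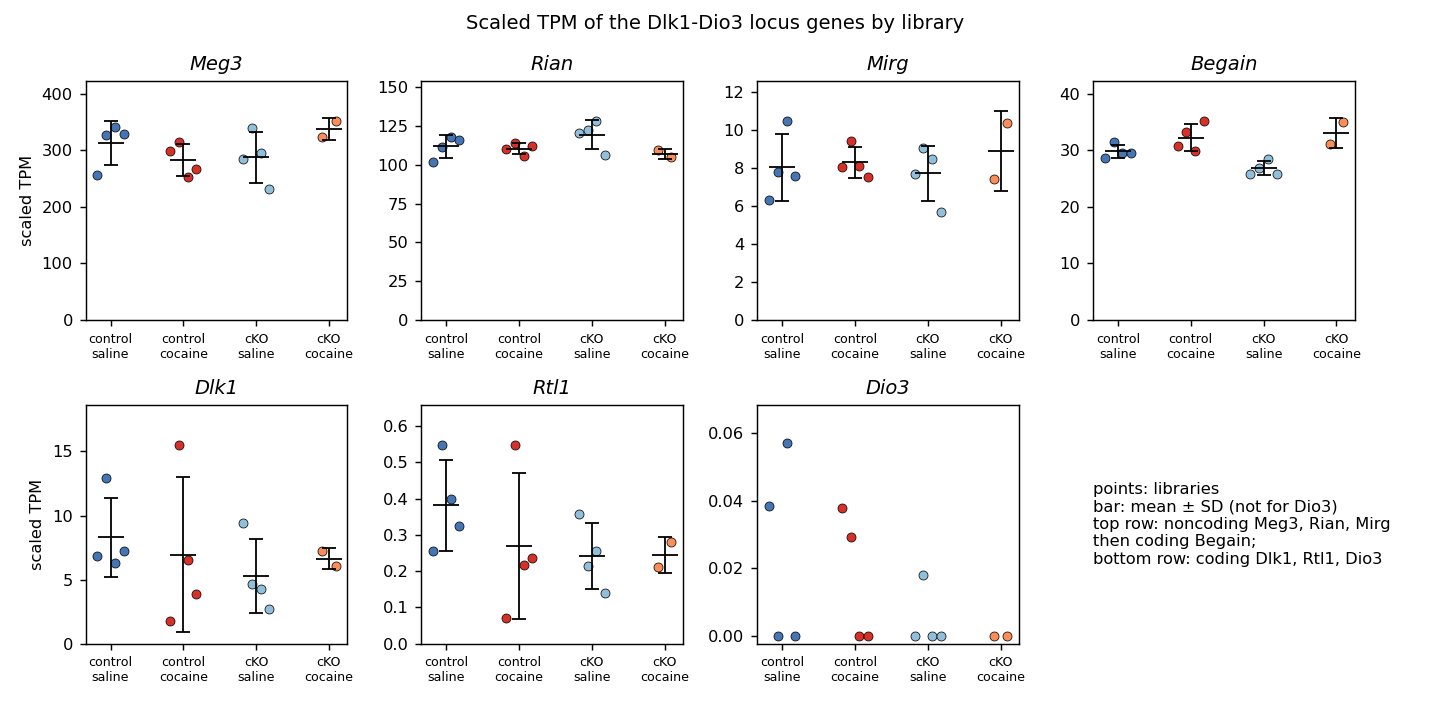
Scaled TPM (vertical axes) of the 7 genes in each library (points), by labelled genotype and treatment, with the mean and SD of each group as bars except for Dio3. Meg3 and Rian vary little, Dlk1 runs from 1.78 to 15.5, and Dio3 is at 0 in 9 of 14 libraries.

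Meg3, a nuclear RNA often used as a marker of neurons, did not pass the test in any comparison. After saline it stood at 256.7, 326.6, 340.6 and 328.0 scaled TPM in controls and at 284.7, 339.5, 294.9 and 231.2 in cKO mice, and after cocaine at 298.6, 314.3, 253.1 and 266.7 under the control label and at 324.0 and 352.1 under the cKO label. The ranges of cocaine and saline libraries overlapped almost throughout. Cocaine minus saline over all libraries was 0.05 on the log2 scale (SE 0.092, limma adjusted p = 0.705), with a 95% interval of -0.15 to 0.25.

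Rian, which contains many of the small RNAs of the locus, was the steadiest member, with a coefficient of variation of 6.68%. The control label had 101.7, 111.7, 118.1 and 115.8 scaled TPM after saline and 109.9, 114.2, 105.6 and 111.8 after cocaine. The cKO label had 120.4, 122.7, 128.3 and 106.2 after saline and 109.5 and 104.8 after cocaine. The 3 highest values were all from cKO saline, whose remaining library lay within the range of the other groups. Over all libraries the difference with cocaine was -0.09 on the log2 scale (SE 0.0473, limma adjusted p = 0.191). The adjusted p by limma fell to 0.0496 without cKO saline replicate 4 and to 0.038 with quantile normalization.

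Mirg, the host of the most distal miRNAs of the cluster, was much lower. Saline libraries held 6.33, 7.79, 10.5 and 7.58 scaled TPM (control) and 7.68, 9.07, 8.47 and 5.72 (cKO), and cocaine libraries 8.09, 9.44, 8.14 and 7.57 (control label) and 7.44 and 10.4 (cKO label). All 4 groups overlapped, and cocaine minus saline was 0.13 on the log2 scale (SE 0.125, limma adjusted p = 0.474).

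Begain was the only member with an adjusted p under 0.05 between cocaine and saline over all libraries. Under the control label it measured 28.6, 31.4, 29.5 and 29.6 scaled TPM after saline against 30.7, 33.1, 29.9 and 35.2 after cocaine, and under the cKO label 25.9, 26.9, 28.5 and 25.9 after saline against 31.1 and 34.9 after cocaine. The cocaine libraries ran from 29.9 to 35.2 and the saline libraries from 25.9 to 31.4, so the groups overlapped only at their edges. The level was 1.15-fold higher with cocaine over all libraries (log2 0.20, SE 0.0454, limma adjusted p = 0.00466, exact two-sided permutation p = 0.004 over 6 and 8 libraries). This change lies under the fold minimum of the call used here, an absolute log2 value of 0.5, and 17.4% of the 13471 tested genes were higher at the same adjusted p. Its direction rests on the scaling, since with TPM as deposited the log2 difference was -0.17 (limma adjusted p = 0.0227), beside a shift of -0.34 for all genes. Of the 10 thalamic neuron markers, 8 were higher and 2 lower with cocaine. Their median log2 change was 0.23, and 3 of 10 were higher at an adjusted p under 0.05. Their summed level ran from 502.2 to 682.1 scaled TPM in saline and from 567.6 to 755.8 in cocaine libraries, with none at 0. Within groups, over 14 libraries, r was 0.41 between Begain and the thalamic sum, -0.66 with the sum of 6 astrocyte markers and -0.59 with that of 7 habenular ones. The part of the tissue make-up in the Begain values was not tested.

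Dlk1 was the most variable of the tested members, with a coefficient of variation of 55.1%. The 4 controls after saline were at 6.85, 12.9, 6.32 and 7.20 scaled TPM, the 4 cKO libraries after saline at 9.45, 4.70, 4.28 and 2.68, those labelled control after cocaine at 1.78, 15.5, 6.51 and 3.91, and the other 2 at 7.21 and 6.06. The lowest and the highest value of all libraries were both in control cocaine, where they differed by a factor of 8.74. Cocaine minus saline was -0.06 on the log2 scale with a 95% interval of -0.91 to 0.78 (limma adjusted p = 0.923), an interval wide enough to hold clear changes in either direction.

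Rtl1 ran from 0.0718 to 0.549 scaled TPM and did not reach the filter of 1 TPM in 3 libraries. After saline the values were 0.255, 0.547, 0.400 and 0.324 in controls and 0.358, 0.215, 0.255 and 0.140 in cKO mice, and after cocaine they were 0.0718, 0.549, 0.218 and 0.236 with the control label and 0.211 and 0.280 with the cKO label. The groups overlapped, and with no filter the log2 difference with cocaine was -0.10 (SE 0.129, limma adjusted p = 0.647). Rtl1 lies on the strand opposite to a maternal transcript that carries miRNAs matching it in full, and the library kit marks strand. Dio3 was above 0 in 2 control saline libraries (0.0384 and 0.0571 scaled TPM), 2 control cocaine libraries (0.0378 and 0.0293) and 1 cKO saline library (0.0181), and was listed at 0 in both cKO cocaine libraries.

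No member was called in any of the 6 comparisons, a call being an adjusted p under 0.05 together with a log2 fold change of 0.5 or more in size. Over all libraries 0 of 5 were called between cocaine and saline, beside 2.07% of all tested genes, with Begain alone at an unadjusted p under 0.05. Within the control label 0 of 5 were called, beside 3.1%, and within the cKO label 0 of 5, beside 3.07%. Between cKO and control 0 of 5 were called after saline, beside 0.0445%, and 0 of 5 after cocaine, beside 0.0371%. For the interaction of label and treatment it was 0 of 5 beside 0.854%.

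By label, Begain was 0.11 higher on the log2 scale with cocaine in the control label (SE 0.0575, limma adjusted p = 0.185). In the cKO label it was 0.30 higher (SE 0.0704, limma adjusted p = 0.012), and both cocaine libraries exceeded all 4 saline libraries. The exact two-sided permutation p is 0.133, the smallest that 2 against 4 can give. Cocaine libraries lay above all saline libraries there for 21.1% of tested genes, and 9.19% of genes were higher at an adjusted p under 0.05. The limma adjusted p rose to 0.126 with the genotype tag, to 0.13 with the libraries whose title and tag agree and to 0.165 without cKO cocaine replicate 2. The difference between the labels, the interaction, was 0.19 (SE 0.0909, limma adjusted p = 0.299). After saline Begain was lower in each cKO library (25.9 to 28.5) than in any control library (28.6 to 31.4), with a log2 difference of -0.15 (SE 0.0575, limma adjusted p = 0.213, exact two-sided permutation p = 0.0286, the smallest that 4 against 4 can give). All cKO libraries lay below all controls for 5.8% of tested genes, and the order rests on the titles, since by the genotype tag the difference was 0.01 on the log2 scale. These contrasts share their saline or cocaine libraries and are not independent of each other.

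The other members differed by label as follows. Meg3 was at 324.0 and 352.1 scaled TPM in the 2 libraries labelled cKO cocaine, above all 4 that carried the control label (253.1 to 314.3), with a log2 difference of 0.26 (SE 0.143, limma adjusted p = 0.497), and 7.03% of tested genes were likewise higher without overlap. Its interaction was 0.39 (SE 0.184, limma adjusted p = 0.285), from -0.14 with cocaine in the control label to 0.24 in the cKO label. Dlk1 had the widest interval, with an interaction of 0.98 between -0.71 and 2.67 (limma adjusted p = 0.545). Rian and Mirg gave interactions of -0.13 and 0.13, with adjusted p-values of 0.481 and 0.825 by limma.

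**Figure D2:**
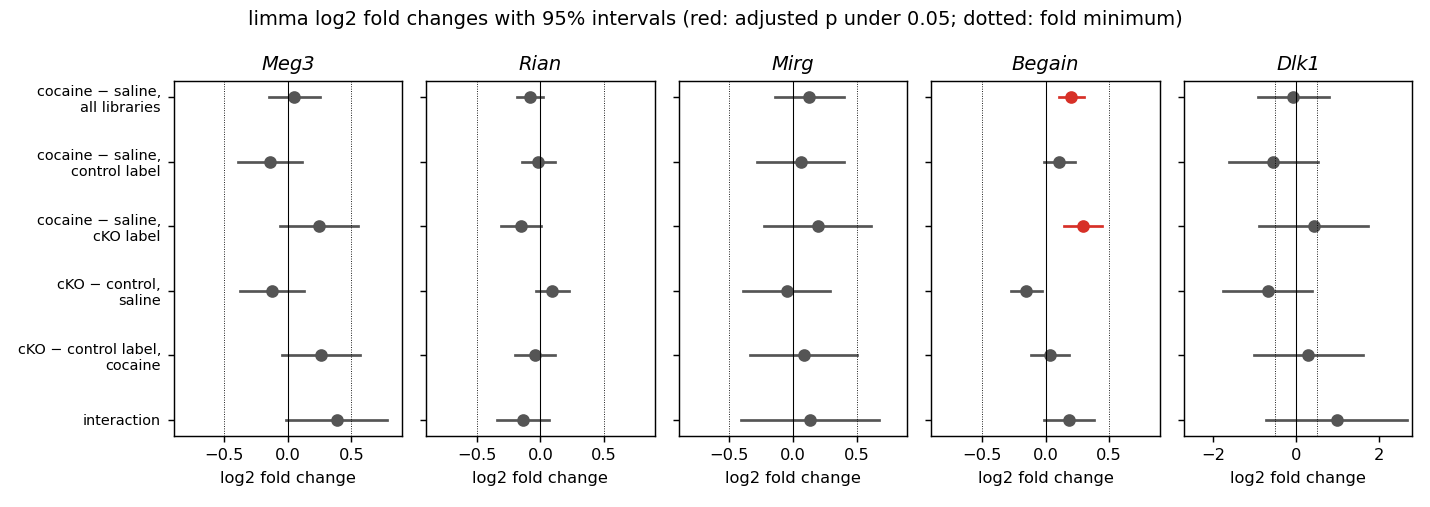
limma log2 fold changes (horizontal axes) of the 5 tested members with 95% intervals, in 6 comparisons (rows). Red marks an adjusted p under 0.05, reached by Begain alone, over all libraries and in the cKO label. In the cKO label 3 of 18 alternatives lose it, not counting unscaled TPM, with which its direction turned. No point with a red mark lies past the dotted fold minimum of 0.5.

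Noncoding and coding members were set side by side without a test, since they were chosen with results known. The mean log2 scaled TPM of Meg3, Rian and Mirg exceeded that of Begain and Dlk1 in all 14 libraries, by 2.05 ± 0.304 (SD, n = 4) in controls and 2.44 ± 0.284 (n = 4) in cKO mice after saline, and by 2.24 ± 0.562 (n = 4) and 2.18 ± 0.145 (n = 2) under the same labels after cocaine. Across treatments the difference moved by -0.03, well within an SD of 0.342 among saline libraries. Most of the spread came with Dlk1. Against Begain alone the noncoding mean was higher by 0.954 to 1.43 in the 8 saline libraries and by 0.804 to 1.08 in the 6 cocaine libraries. The change with cocaine in the log2 ratio of Rian to Meg3 took opposite signs by label. Cocaine minus saline was 0.12 in the control label (exact two-sided permutation p = 0.171) and -0.40 in the cKO label, where the groups did not overlap (exact two-sided permutation p = 0.133, the smallest possible). cKO minus control was 0.22 after saline (exact two-sided permutation p = 0.0571) and -0.30 after cocaine, again without overlap (exact two-sided permutation p = 0.133, the smallest possible). No share over other ratios was computed. Among single tested genes, 21.1% were higher without overlap with cocaine in the cKO label, and 7.03% in cKO against control after cocaine. These shares are for higher values, while the ratio was lower in both, so they are not its background. Over all libraries the ratio differed by -0.09 with cocaine (exact two-sided permutation p = 0.379).

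The 3 noncoding RNAs varied together within the groups. As deviations from the group means over 14 libraries, Pearson's r was 0.83 between Meg3 and Mirg, 0.81 between Meg3 and Rian and 0.69 between Rian and Mirg, on values that share each library's scaling. On the levels themselves, without the group means taken off, r was lower, at 0.76, 0.39 and 0.38 for the same pairs in order. Against the summed choroid plexus markers, within groups, r was -0.55 for Meg3, -0.68 for Rian and -0.54 for Mirg. That sum was 1450 scaled TPM in control saline replicate 1 and at most 57.1 elsewhere. Against the thalamic neuron sum r was 0.24, 0.46 and 0.36 in the same order. The part of the tissue make-up in this covariation was not tested. Ranked among all tested genes by likeness to Meg3, Mirg was at place 32 and Rian at place 47, and Meg3 was at place 9 for Mirg, while Begain and Dlk1 stood at places 1729 and 3115 for Meg3. The genes most like Meg3 were Dennd6b (r = 0.955), Carmil3 (0.927) and Gm14827 (0.924). For Rian they were Epb41l4b (0.937), Rufy2 (0.926) and Arhgef15 (0.911), and for Mirg Ccdc57 (0.877), Spg11 (0.855) and Map3k7 (0.854). For Begain they were Tubb5 (0.964), Astn1 (0.930) and Nisch (0.924).

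Dlk1 varied together with Rtl1. Within groups r was 0.91 between Dlk1 and Rtl1, against 0.25 between Dlk1 and Meg3, and the genes most like Dlk1 were Dgkk (0.953), Peg10 (0.943, another paternally expressed imprinted gene) and Adcy7 (0.942). Both coding genes also varied with the hypothalamic markers. Against the summed level of the 11 hypothalamic markers, within groups, r was 0.89 for Dlk1 and 0.77 for Rtl1, and 0.32 for Meg3, 0.21 for Rian, 0.46 for Mirg and 0.02 for Begain. The 3 libraries with the least hypothalamic signal (8.91, 11.5 and 15.4 scaled TPM) had the 3 lowest Dlk1 levels (1.78, 3.91 and 2.68). The 2 highest Dlk1 levels, 15.5 and 12.9, came with 134.9 and 515.6 scaled TPM of these markers, none of which was at 0 in all libraries of a group. Oxt and Avp, the only neuropeptides correlated singly with Dlk1, followed it less closely, with r of 0.08 and 0.12 within groups. The summed markers ran from 141.4 to 515.6 in controls and from 15.4 to 155.1 in cKO mice after saline, against 8.91 to 134.9 and 65.1 to 111.6 under the same labels after cocaine, with 9 of the 11 tested. With cocaine 0 were called higher and 3 lower over all libraries, beside 1.02% of all tested genes called lower. Within the control label 5 were lower, beside 3.1% called in either direction, and within the cKO label 1 was higher, beside 3.07%. For the interaction 5 were called, all positive, beside 0.854%. These interaction calls rest on the titles, and with the genotype tag only 1 of all tested genes was called for the interaction. The part of neighbouring tissue in the Dlk1 values was not tested, and in whole tissue fewer cells of a type and less RNA per cell cannot be told apart.

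**Figure D3:**
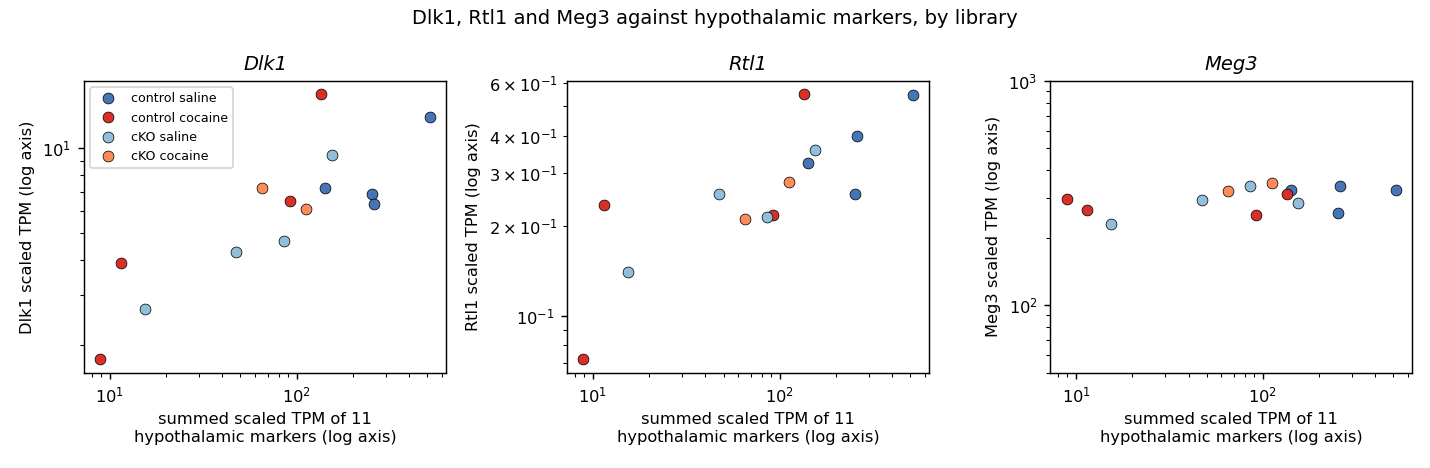
Scaled TPM of Dlk1, Rtl1 and Meg3 (vertical, log axes) against the summed scaled TPM of 11 hypothalamic markers (horizontal, log axis) in each of 14 libraries, coloured by labelled group. Dlk1 and Rtl1 rise along the axis, with r of 0.89 and 0.77 within groups, and Meg3 stays between 231.2 and 352.1.

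The miRNA genes inside the locus held the widest differences between cocaine and saline libraries. Between Begain and Dio3 the files listed 74 genes, of which 65 have no annotated transcript of 200 bases or more. Of the short ones 37 were at 0 in every library and 19 were tested, all miRNA genes. Among these 19, 10 were called between cocaine and saline over all libraries (7 higher and 3 lower, beside 1.05% and 1.02% of all tested genes), while 0 of the 5 tested long genes were. Of the 7 higher ones, 5 were at 0 in every saline library and passed the filter through cocaine libraries alone, so they could only come out higher and their calls are no support. The other 5 calls were Mir666 and Mir337, higher, and Mir1188, Mir665 and Mir1193, lower. Short genes were called more often throughout the table, 39 of 207 (18.8%) against 240 of 13264 (1.81%) for the others, and their median standard error was 0.946 against 0.0594 on the log2 scale. Bc1, a short noncoding RNA, took 3.6 to 5.0% of the deposited TPM in saline and 10.3 to 15.5% in cocaine libraries. The listed gene Gm20594 took 2.3 to 4.4% in saline and 10.4 to 17.1% in cocaine libraries. The part of such shifts in the miRNA values was not tested. The values are for reads assigned to hairpin genes in libraries of long RNA and do not measure mature miRNAs.

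Mir666 (chr12, 109717085 to 109717183, plus strand) showed the largest change of the locus. After saline it stood at 1.30, 1.89, 2.86 and 1.83 scaled TPM in controls and at 1.99, 2.12, 1.47 and 1.52 in cKO mice. After cocaine it stood at 134.4, 107.4, 175.5 and 123.5 with the control label and at 140.3 and 211.3 with the cKO label. No cocaine library came near a saline library. The fitted log2 difference was 6.03 (SE 0.156, limma adjusted p = 1.7e-10, exact two-sided permutation p = 0.000666, the smallest that 6 against 8 can give), and 5.77% of all tested genes were higher without overlap. It lies 176.1 kb after the start of Meg3 and before the annotated start of Mirg at 188.8 kb, and its mature sequences are printed above.

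Mir1188 (chr12, 109611822 to 109611941, plus strand), inside the span of Rian, fell. The control label went from 176.6, 176.0, 186.1 and 192.5 scaled TPM after saline to 117.6, 122.4, 114.4 and 84.9 after cocaine. The cKO label went from 195.9, 204.7, 237.7 and 130.5 to 104.2 and 123.8, in different mice. Every cocaine library lay below every saline library, with a log2 difference of -0.73 (SE 0.125, limma adjusted p = 0.0008), as for 4.87% of all tested genes without overlap. Rian itself differed by -0.09, and reads within a hairpin can be split between the miRNA gene and its host. Mir341, its tested neighbour inside Rian, was 280.6 ± 82.4 in saline and 343.3 ± 97.4 in cocaine libraries (n = 8 and 6, limma adjusted p = 0.189).

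**Figure D4:**
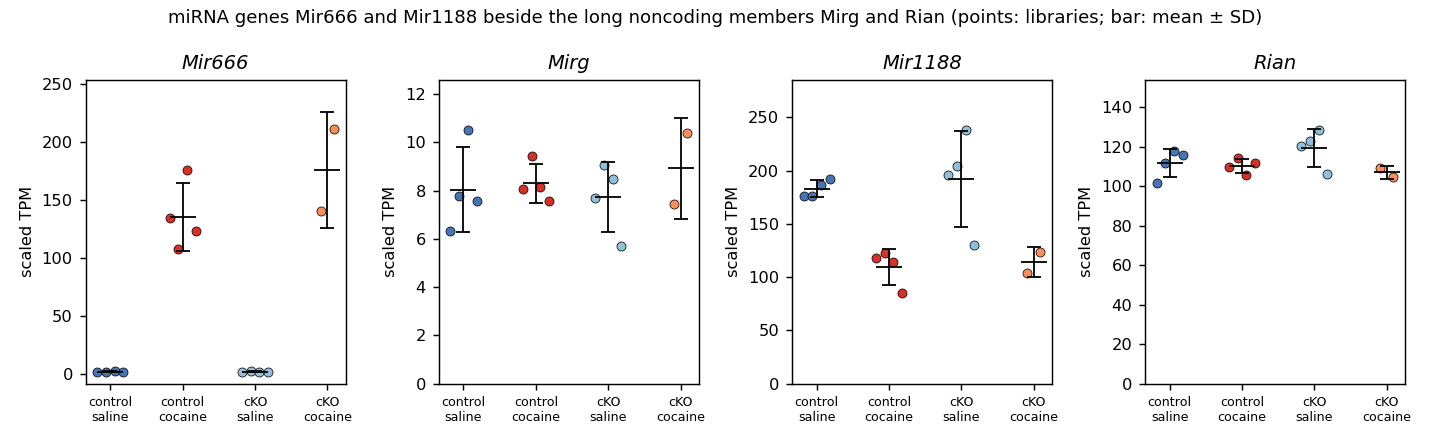
Scaled TPM (vertical axes) of Mir666 beside Mirg and of Mir1188 beside Rian in each library (points), with mean and SD per labelled group. Mir666 separates cocaine (107.4 to 211.3) from saline (1.30 to 2.86) and Mir1188 is lower in each cocaine library, while Mirg and Rian overlap.

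Of the other called miRNA genes around Mirg, Mir654, Mir3072, Mir453, Mir494 and Mir376c were listed at 0 in all 8 saline libraries. Mir654 was at 7.37, 10.1, 8.05 and 8.29 scaled TPM after cocaine under the control label and at 8.24 and 0 under the cKO label. Mir3072, inside Mirg, was at 7.33, 5.04, 8.11 and 0 and at 16.5 and 9.00 in the same order. Each of these was at 0 in 1 of 6 cocaine libraries. Mir453, Mir494 and Mir376c were at 0 in 2 of 6 each, with maxima of 28.2, 17.2 and 34.4. No fold or p-value is given for these 5 genes.

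Near Meg3, Mir337 was 84.4 ± 41.0 scaled TPM in saline and 184.6 ± 97.4 in cocaine libraries (limma adjusted p = 0.0325), and Mir665 was 64.4 ± 68.3 and 15.7 ± 17.8 (limma adjusted p = 0.0458). The ranges overlapped in both, and with other settings or a library left out Mir337 was called in 19 of 26 and Mir665 in 11 of 26 alternatives. Mir1193, named after its values were seen since it was the only called gene around Mirg to fall, was 21.1 ± 7.48 in saline and 8.30 ± 5.73 in cocaine libraries (log2 -1.26, limma adjusted p = 0.00551). The 4 listed small nucleolar RNA genes of the locus gave none to test.

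**Figure D5:**
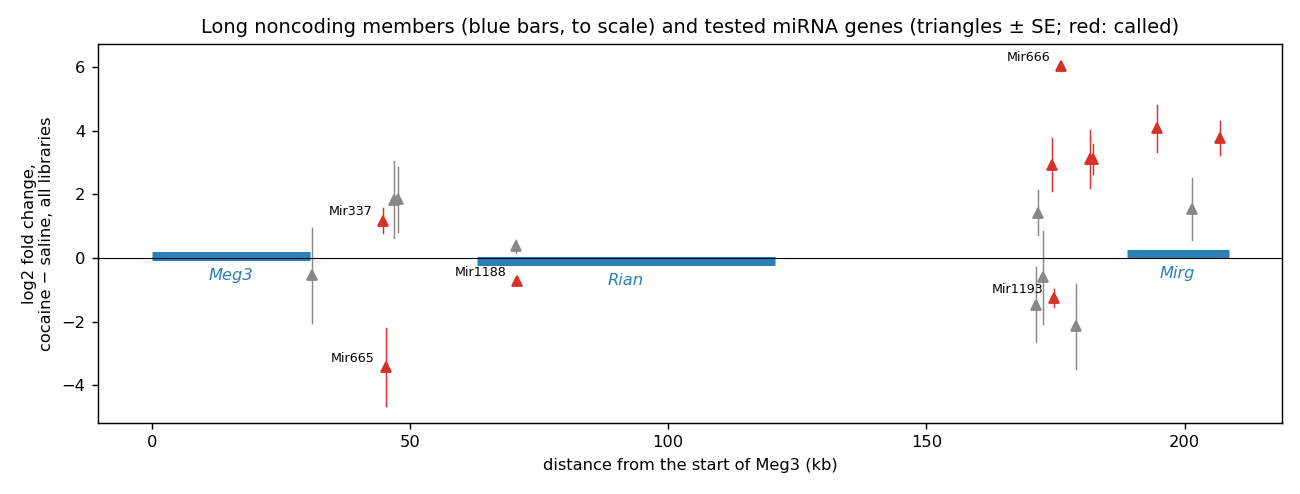
log2 fold change of cocaine against saline over all libraries (vertical axis) along the distance from the start of Meg3 in kb (horizontal axis), for Meg3, Rian and Mirg (blue bars, to scale) and 19 tested miRNA genes (triangles with SE, red where called, 5 of them at 0 in all saline libraries). The 5 genes at 0 in all saline libraries could only come out higher, so their red marks are no support. The blue bars lie between -0.09 and 0.13, while Mir666 stands at 6.03.

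None of the tested genes of the following lists was called between cocaine and saline over all libraries, beside the 2.07% of the whole table, and the median log2 change of all tested genes was 0.01. At an adjusted p under 0.05 without the fold minimum, 17.4% of all tested genes were higher and 15.3% lower. Of 16 genes flanking the locus, 4 were higher and 0 lower at an adjusted p under 0.05, with a median change of 0.03, and the most abundant were Hsp90aa1, a chaperone (223.0 ± 10.7 in saline and 246.0 ± 9.66 scaled TPM in cocaine), and Dync1h1, the dynein heavy chain (72.3 ± 1.64 and 81.4 ± 4.80). Of 12 tested genes that keep or erase imprints, 5 were higher and 2 lower, with a median of 0.07. Here the most abundant were Mbd3, a methyl-CpG binding domain protein (27.0 ± 1.12 and 32.3 ± 1.99), and Trim28, the corepressor that zinc finger proteins bring to imprinted regions (24.3 ± 1.48 and 24.6 ± 1.40).

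Of 18 tested Notch pathway genes, 2 were higher and 2 lower at an adjusted p under 0.05, with a median of 0.00. The most abundant were Dner, a neuronal Notch ligand (46.8 and 46.0 scaled TPM on average after saline and cocaine), and Hey1, a transcription factor that Notch induces (12.3 in both). Of 14 tested genes of thyroid hormone signalling, on which DIO3 acts, 5 were higher and 1 lower, with a median of 0.02. The receptor gene Thra stood at 91.6 and 100.3, and the hormone carrier Ttr, itself a choroid plexus gene, at 192.0 and 9.09 with the choroid-rich control saline replicate 1 included (log2 -1.37, limma adjusted p = 0.345). Named after their values were seen, Hcrt, the hypothalamic neuropeptide orexin, had the widest difference of this list (log2 -1.42, limma adjusted p = 0.466), and Hr, a corepressor of the hormone receptor, was called in the control label (log2 0.51, limma adjusted p = 0.0133). Dio2, which activates the hormone and is likewise named afterwards, had an interaction of -0.74 (SE 0.141, limma adjusted p = 0.0333). This value rests on the titles. Among all tested genes 115 were called for the interaction by the titles, but 1 with the genotype tag. With only the libraries whose title and tag agree it was 4.

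Of 10 tested subunits of Polycomb complex 2, 1 was higher and 4 were lower, with a median of -0.03. The histone-binding subunit genes Rbbp7 and Rbbp4 led in level, with 23.6 and 16.4 scaled TPM after saline and 21.9 and 14.4 after cocaine, and both were among those that fell (limma adjusted p = 0.0357 and 0.00374). Of 11 other nuclear noncoding RNAs 1 was higher and 3 were lower, with a median of -0.08. The nuclear speckle RNA Malat1 stood at 915.7 and 858.4 scaled TPM and Snhg11 at 177.9 and 156.3, and neither passed the test (limma adjusted p = 0.226 and 0.179). Gas5, a host of small nucleolar RNAs, also named after its value was seen, was called in the control label (log2 0.55, limma adjusted p = 0.000344). At the same adjusted p, 17.4% of all tested genes were higher and 15.3% lower.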

How the data were processed

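RNA of thalamus was measured in 14 libraries of 15 samples. The authors mapped reads with STAR 2.5.3a, quantified them with Salmon and deposited TPM per library, which keep no depth. The other 2 deposited tables, of unit other since they write decimal commas, also hold TPM and were read with points. Symbols were matched to GENCODE M21 (24232 of 25080, 96.6%).

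TPM were divided by unweighted TMM factors (30% of log ratios and 5% of means trimmed), 0.5 was added and log2 taken, which understates changes of low genes. Genes with 1 TPM or more in 3 libraries or more, 13471, entered limma 3.58.1 (R 4.3.3) with 4 group means and an intensity trend. P-values were adjusted (Benjamini-Hochberg) over all of them. Cocaine against saline over all libraries averages both labels' contrasts with weights of 0.5. Single values had exact two-sided permutation tests (Python 3.11.15, scipy 1.17.1). The fit was tested on simulated data.

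The members, the gene lists and the rules were chosen with earlier results of these data known. Named were all members, the called genes of each list (up to 6 by size of change, otherwise the 2 most abundant), and the 3 genes most like each tested member. Alternatives were other scalings, pseudocounts, filters, fits, labels and each library left out. P-values measure the spread between these libraries, each called an independent sample by the methods.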

Additional observations from a re-analysis of the deposited data

Results flagged for a closer look

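Meg3 in control saline was set apart by replicate 1, at 256.7 scaled TPM against 326.6 to 340.6 in the other 3 libraries, with a gap of 0.851 of the group's range on the log2 scale. The same library held 1450 scaled TPM of 6 choroid plexus markers, against 3.72 to 57.1 in the other libraries, and the part of these in its Meg3 level was not tested. Without it the log2 difference with cocaine over all libraries was 0.0059, against 0.05 with it.

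Dio3 in cKO saline was set apart by replicate 2, at 0.0181 scaled TPM with the other 3 libraries listed at 0, a gap of 1.0 of the range. With the other 3 tied at 0, any value above 0 gives this gap, so the flag is no support. Dio3 here was 1 of 30 groups of 4 examined, of which 2 were set apart. Chance sets apart about 1 in 20, a rate that does not hold for values tied at 0.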

How the results depend on the processing

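The members called numbered 0 in each comparison under all alternatives but 4. With no fold change minimum 1 was called (Begain) over all libraries and 1 (Begain) in the cKO label. With TPM as deposited 1 was called in the control label (Meg3) and 1 in the cKO label (Rian). Leaving out each library kept these counts at 0. The 10 called miRNA genes became 5 with a mean of at least 5 TPM and 5 with the libraries whose title and tag agree, and 8 to 11 when each library was left out. Of these 10, 5 were at 0 throughout saline and could only be called higher. Mir666 and Mir1188 were called in 26 of 26 alternatives, and Mir665 in 11.

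With TPM as deposited, log2 changes over all libraries turned to -0.33 for Meg3, -0.23 for Mirg and -0.17 for Begain, in the control label to -0.30 for Mirg and -0.27 for Begain, and in the cKO label to -0.14, -0.17 and -0.081 for Meg3, Mirg and Begain. The median of all genes over all libraries was then -0.34. Rian between labels after cocaine turned to 0.0003. Quantile normalization turned Meg3 over all libraries to -0.0912. With the agreeing libraries Dlk1 turned to 0.0464 over all libraries and Rian to 0.0488 in the control label. With the genotype tag, Mirg turned to 0.0408 and Begain to 0.0092 between cKO and control after saline.

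Leaving out single libraries turned directions within these ranges: Dlk1 over all libraries -0.31 to 0.16 and between labels after cocaine -0.15 to 0.78, Rian in the control label -0.0624 to 0.009, Mirg in the control label -0.0405 to 0.19, in the cKO label -0.035 to 0.42, after saline -0.15 to 0.0777, after cocaine -0.15 to 0.31 and for the interaction -0.10 to 0.36, and Begain after cocaine -0.0468 to 0.12. None of these passed the test, and the cause was not tested. Begain over all libraries kept an adjusted p under 0.05 in 25 of 26 other alternatives than unscaled TPM, from 0.00333 to 0.0793, and in the cKO label in 15 of 18, from 0.00875 to 0.165.

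Replicate numbers were not treated as pairs. Same-numbered deviations correlated by -0.014 on average over 18 pairs, a mean that cannot exclude a pairing. A replicate block left the counts of members called at 0 and of miRNA genes at 10. The noncoding minus coding difference of -0.03 moved by less than the spread among saline libraries. Leaving out genes of short transcripts, chosen after seeing the data, changed no call of a member. TPM without counts limits what can be said of Rtl1 and Dio3.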
